A study of Homo sapiens with 6 samples.

Results

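The genes described here are 10 integrin subunits, ITGB1, ITGB3, ITGB5, ITGAV, ITGA3, ITGA4, ITGA5, ITGA6, ITGA7 and ITGA9, matched by symbol among the 35268 named genes of the expression table. They were chosen by name with results of this same comparison known, since ITGB3 had been seen to fall after YK-4-279. Their differences between the groups are therefore given as a description with no p-value. Gene expression was measured by RNA-seq of polyA RNA in Rh30 cells, an established line of fusion-positive rhabdomyosarcoma (FP-RMS) that carries the PAX3-FOXO1 fusion. Cells received 1 µM YK-4-279 in DMSO, or DMSO alone as vehicle, and both groups were collected at 24 hours, with 3 libraries in each group. YK-4-279 is a small molecule first described as a blocker of an ETS fusion protein of Ewing sarcoma, and the comparison asks how it changes transcript levels in FP-RMS cells. The labels give one cell line and do not say whether the replicates were separate cultures, so that p-values measure only the spread between these libraries.

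Integrins are cell surface receptors made of one α and one β chain, and they tie the extracellular matrix to the actin cytoskeleton. The β chain binds the cytoplasmic adaptors talin and kindlin, and the pairing of the chains sets which ligand is bound. The β1 chain has the most partners, whereas αV pairs with β1, β3, β5, β6 and β8. In muscle, α7β1 is the main laminin-binding integrin of the mature fibre, and α4β1, α5β1 and α9β1 act during myoblast migration and fusion. The β3 chain forms the vitronectin receptor with αV and the platelet fibrinogen receptor with αIIb (ITGA2B).

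The libraries held between 16724650 and 24677433 reads assigned to genes. The muscle regulators MYOD1 (34516 to 39146 normalized counts with DMSO, 35548 to 37701 with YK-4-279) and MYOG (11115 to 15556 and 15558 to 16587) were abundant in every library. DES (6188 to 7126 and 7175 to 7577), MYCN (3583 to 4166 and 3929 to 4174), PAX3 (1549.8 to 1744 and 1693 to 1794), FOXO1 (1849 to 2336 and 1673 to 1745) and TFAP2B (1034 to 1112 and 1103 to 1117) were also present. The summed level of 9 markers of endothelial, blood and epithelial cells was 110 to 116 normalized counts with DMSO and 105 to 161 with YK-4-279, with the largest part from the epithelial marker EPCAM (51 to 103 reads a library). The endothelial markers PECAM1 (13 to 32 reads), CDH5 (4 to 18) and VWF (4 to 12) and the platelet marker GP1BA (7 to 32) were low, and CDH1 (0 to 2), the leukocyte marker PTPRC (0 to 1), CD68 and GP9 (both 0 in every library) were at or near 0. DMSO replicate 1 stood somewhat apart, with a mean correlation of 0.989 with the other libraries against 0.992 to 0.993 for the rest. Each count of calls is therefore also given without it. In limma's test on all 13930 genes with a mean of at least 10 normalized counts, 475 genes had a Benjamini-Hochberg adjusted p under 0.05 (3.41%), and such genes are termed called. Of these, 299 were lower (2.15%) and 176 higher (1.26%) after YK-4-279. With quantile normalization the called genes were 132 higher and 145 lower. All 3 YK-4-279 libraries lay below all 3 DMSO libraries for 15.1% of the genes and above them for 10.9%. Without DMSO replicate 1, 13.1% of 13960 genes were called.

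Promoter windows were on hand for 6 of the 10 subunits, with none for ITGB3, ITGA3, ITGA7 and ITGA9. Of the 6 windows, 3 held at least 100 bases free of annotated exons of the gene. These were ITGB1 and ITGAV, which were lower in every YK-4-279 library, and ITGA5, whose level overlapped between the groups. The 3 stretches are shown because ETS factors, the family of the fusion partner against which the drug was first described, bind DNA at a GGAA core. They are RefSeq promoter sequences (GRCh38.p14), 5′ to 3′ on the strand of the gene, and lie upstream of the start of the MANE Select transcript, up to the nearest annotated exon of that gene. ITGB1 also has annotated starts farther upstream, so that its stretch lies within the annotated span of the gene. The capitals mark each GGAA or its reverse complement TTCC. The stretches are chr10:32958326-32958480 on the minus strand for ITGB1, chr2:186589806-186590009 on the plus strand for ITGAV and chr12:54419267-54419516 on the minus strand for ITGA5.
ITGB1: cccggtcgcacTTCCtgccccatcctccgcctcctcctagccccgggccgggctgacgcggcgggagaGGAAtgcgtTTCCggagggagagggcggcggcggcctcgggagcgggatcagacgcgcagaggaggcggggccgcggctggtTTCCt
ITGAV: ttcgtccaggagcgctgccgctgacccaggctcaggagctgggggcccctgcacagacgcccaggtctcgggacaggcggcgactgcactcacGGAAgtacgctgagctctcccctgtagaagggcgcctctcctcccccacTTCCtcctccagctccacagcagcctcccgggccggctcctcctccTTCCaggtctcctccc
ITGA5: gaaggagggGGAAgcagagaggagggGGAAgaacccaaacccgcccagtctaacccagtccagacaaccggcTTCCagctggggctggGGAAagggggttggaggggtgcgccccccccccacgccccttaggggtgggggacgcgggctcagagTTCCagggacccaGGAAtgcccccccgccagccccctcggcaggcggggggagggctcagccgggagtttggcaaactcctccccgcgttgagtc
The 4 letters occurred at 4 places in the ITGB1 stretch, at 3 in that of ITGAV and at 6 in that of ITGA5. Of all 35116 promoter windows of 250 bases before the start, 92.7% held GGAA on either strand, so that its presence does not set these genes apart. The longer CCGGAA, which contains GGAA, was in 14.5% of all windows and in 2 of the 6 windows on hand for the chosen subunits. ITGB1 held it once, on the reverse strand, as TTCCGG beginning at the second TTCC. CCGGAAGT was in 3.42% of all windows and in 0 of those 6. These matches are of letters only, and binding was not measured here.

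ITGB3 was the chosen subunit with the largest fall. The gene lies at chr17:47253827-47313743 on the plus strand (hg38, GENCODE 44). Its level was 641, 626 and 574 normalized counts in DMSO replicates 1, 2 and 3, and 442, 491 and 446 in YK-4-279 replicates 1, 2 and 3. The groups did not overlap, and the mean went from 613.5 ± 34.6 to 459.8 ± 27.2 (SD, n = 3), a level 25.0% lower. The log2 fold change was -0.42 (SE 0.08), and -0.38 without DMSO replicate 1. ITGB3 was called lower with all libraries, but not when any one of the 3 YK-4-279 libraries was left out. Nor was it called with a replicate block or without the eBayes trend. A stretch of 2266 of its 6829 merged exon bases (33.2%) is also annotated to an unnamed protein-coding gene on the same strand. How reads of that stretch were counted is not given, and its effect on the level was not tested. In RNA from bulk cultures, fewer cells expressing a gene and less RNA per cell cannot be told apart.

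ITGAV and ITGB1, the chains that can pair with each other, were also lower in every YK-4-279 library. ITGAV (chr2:186590010-186680901, plus strand), the α chain of the vitronectin receptors, measured 13222, 11429 and 11708 normalized counts with DMSO and 10666, 10825 and 10692 with YK-4-279. Its mean was 12119.6 ± 965 and 10728 ± 85.2, with a log2 fold change of -0.17 (SE 0.06) that was not called. ITGB1 (chr10:32887273-33005792, minus strand) was at 9783, 8048 and 8174 with DMSO and at 7163, 7566 and 7376 with the drug. The means were 8668 ± 968 and 7368 ± 202, and the log2 fold change of -0.23 (SE 0.07) was not called. For both genes DMSO replicate 1 was the highest of the 6 libraries. Without that library the log2 fold change was -0.11 for ITGAV, not called, and -0.14 for ITGB1, which was then called.

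The remaining β chain, ITGB5 (chr3:124761948-124901418, minus strand), pairs with αV alone and binds vitronectin. It was at 3615, 4038 and 4078 normalized counts with DMSO and at 3901, 3926 and 4049 with YK-4-279. The groups overlapped, with means of 3910.3 ± 257 and 3959 ± 79.1 and a log2 fold change of 0.02 (SE 0.06) that turned to -0.04 without DMSO replicate 1.

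The 3 laminin-binding α chains overlapped between the groups. ITGA6 (chr2:172427354-172506459, plus strand), which pairs with β1 or β4, was at 1426, 1198 and 1301 normalized counts with DMSO and at 1194, 1216 and 1184 with YK-4-279, a log2 fold change of -0.12 (SE 0.07) that was -0.06 without DMSO replicate 1 and -0.19 without DMSO replicate 2. ITGA7 (chr12:55684568-55716404, minus strand), the α chain of the laminin-binding integrin of muscle, was at 762, 965 and 861 and at 957, 849 and 893, a log2 fold change of 0.07 (SE 0.09). The lowest ITGA7 value of the 6 was that of DMSO replicate 1, and the fold change turned to -0.02 without it. ITGA3 (chr17:50055968-50090481, plus strand), a laminin-binding chain of epithelial cells, was at 124, 185 and 200.4 with DMSO and at 187, 174 and 193 with the drug. DMSO replicate 1 was again the lowest, and the log2 fold change of 0.15 (SE 0.16) became -0.06 without it.

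Of ITGA4, ITGA5 and ITGA9, whose chains pair with β1 and bind fibronectin or tenascin, ITGA4 was separated between the groups. ITGA4 (chr2:181457202-181538940, plus strand), the α4 chain that binds VCAM1 and fibronectin, measured 758, 766 and 675 normalized counts with DMSO and 857, 854 and 830.4 with YK-4-279. All 3 drug libraries lay above the DMSO libraries, with means of 733 ± 50.7 and 847 ± 14.5. The log2 fold change of 0.21 (SE 0.08) was not called with all libraries, and was called at 0.24 without DMSO replicate 1. Exons of CERKL on the opposite strand cover 2813 of the 10654 merged exon bases of ITGA4 (26.4%). ITGA5 (chr12:54395261-54419266, minus strand), the α chain of the classical fibronectin receptor, was at 1866, 2159 and 2079 with DMSO and at 2092, 2162 and 1964 with the drug, a log2 fold change of 0.03 (SE 0.07) with overlapping groups. That value turned to -0.03 without DMSO replicate 1, and was also just below 0 without YK-4-279 replicate 2 and with the trend on GC and length removed. ITGA9 (chr3:37452115-37823507, plus strand), whose α9β1 pair binds tenascin-C, was near the detection limit at 3.78, 6.99 and 2.50 with DMSO and 4.28, 3.26 and 6.003 with YK-4-279. These values rest on 3 to 7 reads a library, and ITGA9 did not pass the filter on low values.

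**Figure D1:**
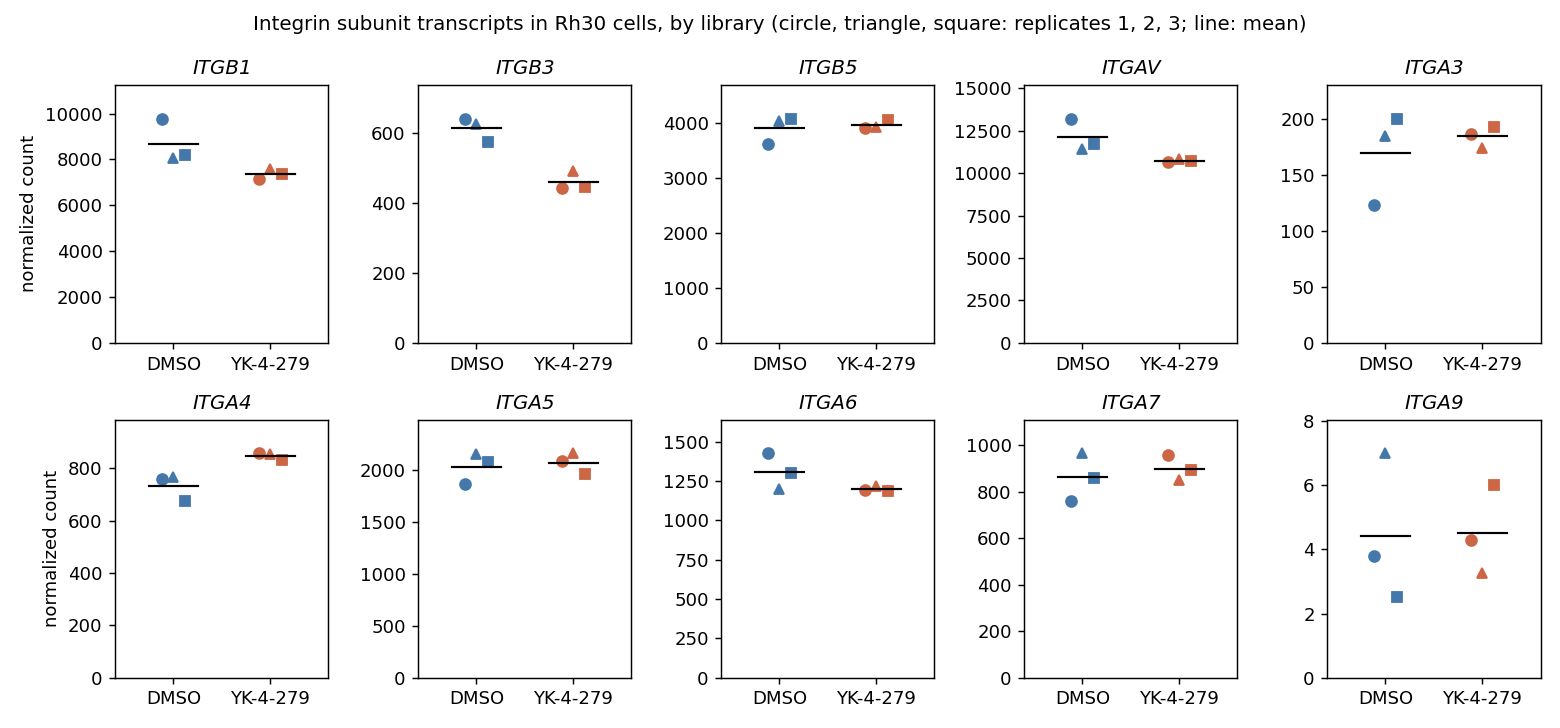
Normalized counts (vertical axes, each from 0) of the 10 chosen integrin subunits in the 3 DMSO and the 3 YK-4-279 libraries, with a line at each mean. The YK-4-279 points lie below all DMSO points for ITGB1, ITGB3 and ITGAV, and above them for ITGA4.

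In counts, 9 of the 10 chosen subunits were tested and 1 was called, ITGB3, where 3.41% of all genes were called. Of the 9, 4 had a log2 fold change below 0 and 5 above it, where 7246 of all genes tested were below 0 and 6684 above. The YK-4-279 libraries lay below the DMSO libraries for 3 and above them for 1, beside 15.1% and 10.9% of all genes. They overlapped for 5. The median log2 fold change was 0.02, against -0.01 over all tested genes. The split of signs and the median rested on DMSO replicate 1. With that library left out 8 were below 0 and 1 above it, and the median was -0.06 (-0.01 over all genes). Without DMSO replicate 1, 3 were called, ITGB1 and ITGB3 lower and ITGA4 higher, beside 13.1% of all genes. Since the subunits were selected on this contrast, these counts describe them and nothing further is drawn from them.

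**Figure D2:**
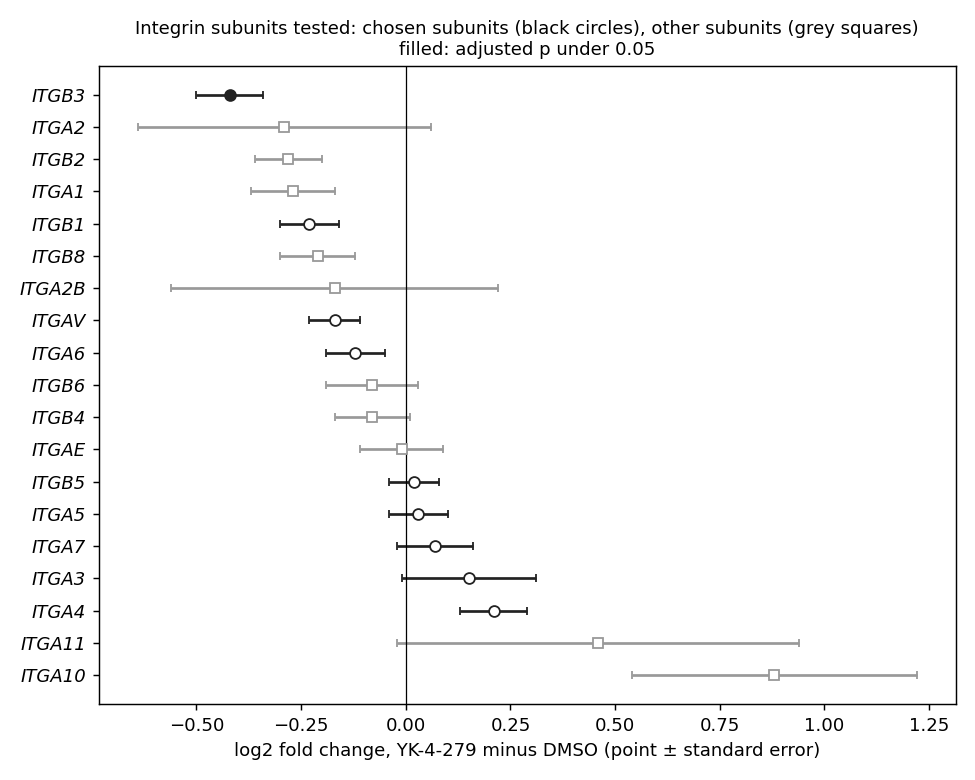
Log2 fold change of YK-4-279 over DMSO (horizontal axis, point ± standard error) for the 19 integrin subunits tested, with black circles for the chosen subunits, grey squares for the others and filled symbols for genes called. ITGB3 at -0.42 is the only filled symbol, and the widest error bars belong to the scarce ITGA2, ITGA2B, ITGA10 and ITGA11.

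DMSO replicate 1 was the highest or the lowest of the 6 libraries for 8 of the 9 tested subunits (88.9%), where this held for 62.6% of all genes tested. It was highest for ITGB1, ITGB3, ITGAV and ITGA6 and lowest for ITGB5, ITGA3, ITGA5 and ITGA7. Among the tested subunits the direction went with the base composition of the transcripts. ITGAV, ITGA4, ITGB1 and ITGA6, with 38.3% to 42.5% GC, were higher in DMSO replicate 1 than in the mean of the other DMSO libraries by 0.19, 0.08, 0.27 and 0.19 on the log2 scale. ITGB5, ITGA5, ITGA7 and ITGA3, with 54.6% to 60.9% GC, differed by -0.17, -0.18, -0.26 and -0.64. ITGB3 lay between, at 49.7% GC and 0.10, near the median of 48.3% over the genes tested. The untested ITGA9, at 48.9% GC, differed by -0.15 on 3 to 7 reads a library. With the smooth trend on GC content and length removed from every library, an alternative added after the data had been seen, the log2 fold change was -0.41 for ITGB3, -0.14 for ITGB1, -0.09 for ITGAV and 0.29 for ITGA4. ITGB3, ITGB1 and ITGA4 were called in that fit, in which 11.7% of all genes were called, and ITGAV was not.

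**Figure D3:**
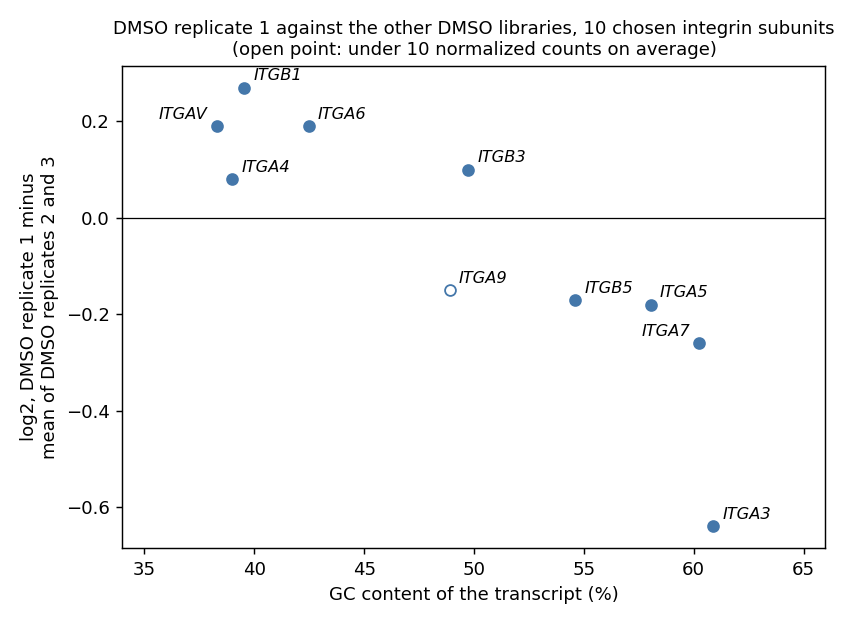
GC content of each transcript (horizontal axis, percent) against the log2 difference between DMSO replicate 1 and the mean of DMSO replicates 2 and 3 (vertical axis) for the 10 chosen subunits. The 4 subunits of the lowest GC content lie above 0, those over 54% lie below it, and ITGA3 is the lowest at -0.64.

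To compare levels between subunits, normalized counts were divided by the merged exon length of each gene. With DMSO, ITGAV (627 ± 49.9 normalized counts per kb, SD, n = 3), ITGB5 (600.2 ± 39.4) and ITGB1 (595 ± 66.4) were the highest, and their ranges overlapped. ITGA5 (276 ± 20.5) and ITGA6 (196 ± 17.1) followed, each separated from its neighbours. ITGA7 (95.0 ± 11.2) and ITGB3 (89.8 ± 5.07) overlapped each other, and ITGA4 (68.8 ± 4.76), ITGA3 (17.3 ± 4.14) and ITGA9 (0.535 ± 0.280) came last. With YK-4-279, ITGB5 (608 ± 12.1), ITGAV (555 ± 4.41) and ITGB1 (506 ± 13.9) did not overlap, and ITGA4 (79.5 ± 1.36) stood above ITGB3 (67.3 ± 3.98). The overlaps with DMSO rested on DMSO replicate 1. In the other DMSO libraries ITGB5 (620 to 626), ITGAV (591 to 605) and ITGB1 (553 to 561) were already separate and in the order seen with YK-4-279, and ITGA7 (94.8 to 106) lay above ITGB3 (84.1 to 91.6). ITGB3 and ITGA4 share 33.2% and 26.4% of their merged exon bases with other genes, and how reads there were counted was not tested. The order depends on the transcript assumed. Per kb of the MANE Select transcript, a length added after the data had been seen, ITGB1 came first with DMSO (2321 ± 259), then ITGAV (1722 ± 137) and ITGB5 (881 ± 57.8), and ITGB3 (103 ± 5.83) overlapped ITGA4 (108 ± 7.47). Per kb of the longest protein-coding transcript ITGB1 was at 1803 and ITGAV at 1722, a difference smaller than the SD of either.

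**Figure D4:**
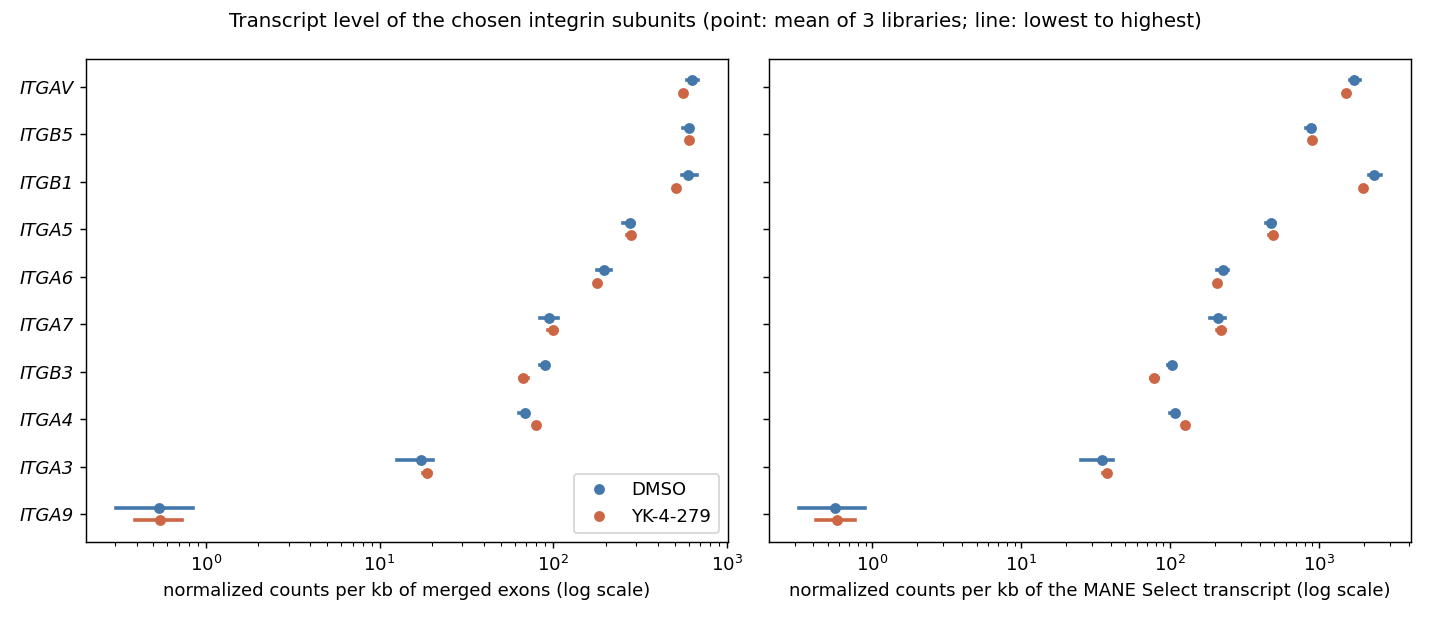
Normalized counts per kb (horizontal axes, log scale) of the 10 chosen subunits with DMSO and with YK-4-279, per kb of merged exons on the left and of the MANE Select transcript on the right, with points at the mean of 3 libraries and lines from the lowest to the highest. ITGAV, ITGB5 and ITGB1 lie above all other chosen subunits on both scales, and ITGA9 lies below 1.

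The β chains that can pair with αV were set against each other within a library, as the share of their summed level per kb of merged exons. ITGB3 made up 6.503% ± 0.310 with DMSO and 5.32% ± 0.271 with YK-4-279 (SD, n = 3). ITGB5 went from 43.5% ± 3.97 to 48.0% ± 0.781, and ITGB1 from 43.0% ± 3.57 to 40.0% ± 0.578. With DMSO replicate 1 left out the DMSO means were 6.46% for ITGB3, 45.8% for ITGB5 and 41.0% for ITGB1, so that the differences of ITGB5 and ITGB1 were smaller. ITGB8 (4.91% and 4.62%) and ITGB6 (2.04% and 2.10%) held the rest. The merged exon lengths keep bases shared with other genes, 33.2% for ITGB3 and 16.7% for ITGB6. Per kb of the MANE Select transcripts, ITGB3 was 2.99% ± 0.165 and 2.52% ± 0.114, and ITGB1 took 67.0% and 64.2%. By both lengths β3 was a minor β chain at the transcript level in these cells, and protein was not measured.

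The other integrin subunits were 16, of which 10 passed the filter and 0 were called by limma or by edgeR, beside 3.41% of all genes. An unadjusted p under 0.05 was reached by 4 of them and by 2600 of all 13930 genes. DESeq2 called 1, ITGB2, where it called 4.85% of all genes and edgeR called 3.34%. The median of the 10 was -0.13 on the log2 scale against -0.01 over all genes. The signs of ITGA2, ITGA2B, ITGA11 and ITGAE turned under some alternatives, and ITGA1, ITGB2, ITGB4, ITGB6 and ITGB8 kept a fold change below 0 and ITGA10 one above it. ITGB2, the β chain of the leukocyte integrins, was at 1247, 1474 and 1394 normalized counts with DMSO and at 1175, 1124 and 1077 with YK-4-279. The groups did not overlap, with a log2 fold change of -0.28 (SE 0.08, limma adjusted p = 0.0579). Without DMSO replicate 1, 1 of the 10 was called, ITGB2, lower at -0.35 (limma adjusted p = 3.17e-06), beside 13.1% of all genes. ITGB8, an αV partner that activates latent TGF-β, was at 1178, 925 and 987 and at 882, 881 and 893, a log2 fold change of -0.21 (SE 0.09, limma adjusted p = 0.210) that was -0.11 without DMSO replicate 1. ITGA1, a collagen-binding chain, had a log2 fold change of -0.27 (SE 0.10, limma adjusted p = 0.156), with the drug libraries below the DMSO libraries. ITGB4 (-0.08), ITGB6 (-0.08) and ITGAE (-0.01) overlapped between the groups. ITGA2 (-0.29), ITGA2B (-0.17), ITGA10 (0.88) and ITGA11 (0.46) rested on 35 reads or fewer in each library, and none was called under any alternative that gave a value. Without DMSO replicate 1 they were at -0.14, -0.38, 0.80 and 0.45 in that order. Of these ITGA10, a collagen-binding chain of cartilage, lay above the DMSO libraries in every YK-4-279 library (SE 0.34, limma adjusted p = 0.184). The 6 untested subunits, ITGA8, ITGAD, ITGAL, ITGAM, ITGAX and ITGB7, held at most 12 reads in any library.

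Of the laminin chains, the ligands of α3β1, α6β1 and α7β1, 9 of 11 were tested and 1 was called, beside 3.41% of all genes. LAMA1, the α1 chain of the embryonic laminin, was at 953, 982 and 942 normalized counts with DMSO and at 667, 690.0 and 690.3 with YK-4-279. It was 28.9% lower, with a log2 fold change of -0.49 (SE 0.07, limma adjusted p = 0.00334). Leaving out YK-4-279 replicate 1 ended that call (adjusted p = 0.0558), and the call stood in the other 16 alternatives. LAMC1, the most abundant laminin chain, overlapped between the groups at -0.06 (SE 0.06, limma adjusted p = 0.598), or -0.02 without DMSO replicate 1. The median of the 9 chains was -0.06, or -0.11 without DMSO replicate 1. Without DMSO replicate 1, 4 chains were called, LAMA1, LAMA2, LAMA4 and LAMA5, all lower, beside 13.1% of all genes, of which 1180 were lower and 647 higher.

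Of 18 other ligands of integrins, 13 were tested and 2 were called, both lower, beside 3.41% of all genes called in either direction and 2.15% lower. NID1 (nidogen, which links laminin to collagen IV in basement membranes) was at 2436, 2472 and 2365 normalized counts with DMSO and at 1985, 1922 and 1949 with the drug, a log2 fold change of -0.31 (SE 0.06, limma adjusted p = 0.0117). NPNT (nephronectin, a ligand of α8β1) was at 1754, 1739.7 and 1758 and at 1398, 1337 and 1437, a log2 fold change of -0.33 (SE 0.06, limma adjusted p = 0.0117). ITGA8, the α chain of that receptor, was at 0 in 5 of the 6 libraries and held 1 read in the other. TNC (tenascin-C), the most abundant ligand, had a log2 fold change of 0.10 (SE 0.06, limma adjusted p = 0.389), or 0.05 without DMSO replicate 1. The median of the 13 was -0.05, or -0.01 without DMSO replicate 1. Neither NID1 nor NPNT was called when any one of the YK-4-279 libraries was left out or without the eBayes trend, and NID1 was not called with a replicate block. Without DMSO replicate 1 the number called was 6, of which 4 were lower and 2 higher, beside 13.1% of all genes.

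**Figure D5:**
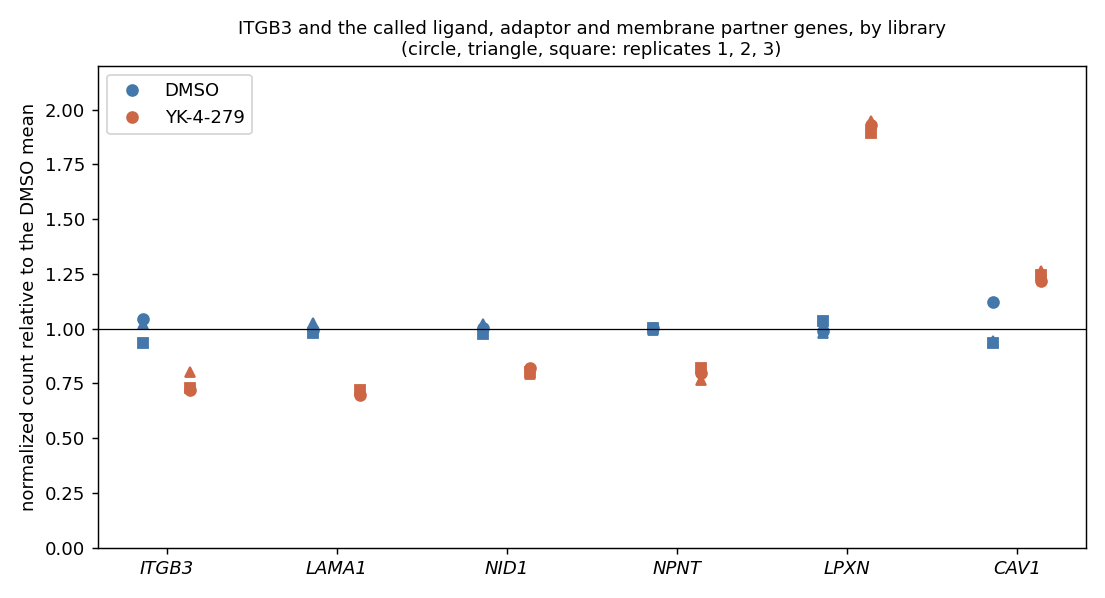
Normalized counts relative to the DMSO mean of the gene (vertical axis, from 0) in each library for ITGB3 and the called laminin, ligand, adaptor and membrane partner genes. LAMA1, NID1 and NPNT lie below 1 in every YK-4-279 library, CAV1 lies above all DMSO points, and LPXN is near 1.92.

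The cytoplasmic adaptors and signalling proteins of integrins numbered 41, of which 38 were tested and 1 was called, higher, where 3.41% of all genes were called and 1.26% were called higher. LPXN (leupaxin, a paxillin family adaptor) was at 30.3, 29.98 and 31.7 normalized counts with DMSO and at 59.1, 59.8 and 58.0 with YK-4-279, a log2 fold change of 0.92 (SE 0.19, limma adjusted p = 0.0196). This call rested on 24 to 69 reads a library. It was lost when any one of the YK-4-279 libraries was left out and with a replicate block. FLNC (filamin C, the muscle filamin that links β chains to actin), the most abundant of the list, had a log2 fold change of 0.13 (SE 0.07, limma adjusted p = 0.320), or 0.06 without DMSO replicate 1, with overlapping groups. Of the 38, 22 were above 0 and 16 below it, with a median of 0.01. When DMSO replicate 1 was left out, 4 were called, all higher, beside 13.1% of all genes. Of 12 membrane partners, among them tetraspanins and syndecans, 1 was called, higher, beside the same 3.41% and 1.26%. CAV1 (caveolin-1, a coat protein of caveolae) was at 870.0, 731 and 726 with DMSO and at 943, 980.2 and 967 with the drug, a log2 fold change of 0.32 (SE 0.08, limma adjusted p = 0.04998). It lay at the threshold and lost its call in 9 of 17 alternatives. BSG (basigin), the most abundant partner, was at 0.04 (SE 0.07, limma adjusted p = 0.779), and at -0.04 without DMSO replicate 1. The median of the 12 was 0.02, with 5 below 0 and 7 above it. Leaving out DMSO replicate 1 gave a median of -0.11, with 9 below 0 and 3 above it, and the number called was 3, of which 2 were lower and 1 higher, beside 13.1% of all genes. All these lists were written with earlier results of the data known.

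The genes whose levels most resembled that of ITGB3 over the 6 libraries were PDGFA (Pearson r = 0.996, a ligand of the PDGF receptors), TMEM248 (0.996, a transmembrane protein), RBBP7 (0.996, a histone-binding protein), GINS2 (0.995, a subunit of the replicative helicase) and GPI (0.994, a glycolytic enzyme). They were taken from 10698 genes with a mean of at least 100 normalized counts, of which 230 reached an r of 0.95. The 6 points share the libraries and the group difference, so that these values describe likeness only. PDGFA was at 1599, 1569 and 1489.5 normalized counts with DMSO and at 1237, 1319 and 1274 with YK-4-279. As for ITGB3, the highest of its drug libraries was YK-4-279 replicate 2 and the lowest of its DMSO libraries was DMSO replicate 3.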

How the data were processed

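RNA was sequenced from 3 DMSO and 3 YK-4-279 samples of Rh30 cells (labels: Illumina directional mRNA preparation, paired-end reads). The authors trimmed reads with BBDuk, aligned and counted them with STAR 2.7.9a on hg38 and normalized them in DESeq2 1.44.0. The deposited values are a normalized signal, reads divided by a size factor of each library. The gene annotation and strand setting of the counting are not given in the sources used here. Every value (100% in each library, tolerance 0.01) gave whole reads, and totals were 16724650 to 24677433. The 1 row without a gene name held at most 6 reads a library and was left out.

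The groups were compared by limma 3.58.1 (R 4.3.3, with eBayes moderation and a mean-variance trend), taking log2(normalized count + 1) of each gene whose mean was at least 10, two-sided, with Benjamini-Hochberg adjustment over all genes. Fold changes are on that scale and understate those of scarce genes. The replicate numbers did not pair the libraries, and no block was used except as an alternative. Alternatives were a replicate block, pseudocounts of 0.5 and 10, no filter, a mean of at least 100, TMM and quantile normalization, eBayes without trend, count tests of the recovered reads by edgeR 4.0.16 and by DESeq2 1.42.0, leaving out each library, and, added after the data had been seen, removal of a lowess trend (span 0.3) on GC content and length. Lengths and positions are from GENCODE 44 (hg38). The fit was tested on simulated counts.

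The subunits and lists were chosen with earlier results of these data known. Named were all chosen subunits, all other tested subunits, in each further list the most abundant gene and up to 5 called genes, the markers, and the 5 genes most like ITGB3. Promoter entries matched 6 of the 10 subunits, and protein sequences were not used here.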

Additional observations from a re-analysis of the deposited data

How the results depend on the processing

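The fall of ITGB3 kept its direction under all 17 alternatives, at -0.46 to -0.38 on the log2 scale, and was called in 12 of them. The call was lost without the eBayes trend, with the replicate block and without any one of the YK-4-279 libraries, and the cause was not tested. ITGB1 (-0.28 to -0.14, called in 3) and ITGA4 (0.15 to 0.29, called in 2) kept their direction, as did ITGAV (-0.21 to -0.09, called in 0) and ITGA6 (-0.19 to -0.06, called in 0). Without DMSO replicate 1 the log2 fold changes of ITGB5 (-0.0358), ITGA3 (-0.0614), ITGA5 (-0.0329) and ITGA7 (-0.0205) turned negative. That of ITGA5 was also negative without YK-4-279 replicate 2 (-0.0030) and after removal of the trend on GC and length (-0.0015). Over the left-out libraries the ranges were -0.0358 to 0.0511 for ITGB5, -0.0614 to 0.29 for ITGA3, -0.0329 to 0.0724 for ITGA5 and -0.0205 to 0.15 for ITGA7.

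Of all genes, 277 were called with quantile normalization, 33 with eBayes without trend and 1608 after removal of the trend on GC and length. Leaving out 1 library gave 1827 (DMSO replicate 1), 686 (DMSO replicate 2), 242 (DMSO replicate 3), 19, 25 and 46 (YK-4-279 replicates 1, 2 and 3), hence 19 to 1827. Leaving out 1 library gave 0 to 3 calls among the chosen subunits, 0 to 1 among the other subunits, 0 to 4 among laminins, 0 to 6 among other ligands, 0 to 4 among adaptors and 0 to 3 among membrane partners. With eBayes without trend 0 chosen subunits, 0 other ligands and 0 membrane partners were called. Removing the GC content and length trend gave calls for 11.7% of all genes. Called in that fit were 3 of 9 chosen subunits, 1 of 10 other subunits (ITGB2) and 4 of 9 laminins. Also called were 6 of 13 other ligands, 2 of 38 adaptors and 2 of 12 membrane partners. DESeq2 called 623 of all genes (4.85%), 1 of 10 other subunits (ITGB2) and 2 of 38 adaptors. Quantile normalization gave 2 adaptors and 0 membrane partners, a mean of at least 100 gave 0 adaptors, and a pseudocount of 0.5 gave 0 membrane partners.

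Same-numbered libraries of the groups did not deviate together (correlations of -0.098, -0.027 and -0.027). With a replicate block 180 genes were called, with 0 chosen subunits, 1 other ligand (NPNT), 0 adaptors and 0 membrane partners. ITGA9, on 3 to 7 reads a library, was tested only without the filter on low values and was not called there.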

Other observations

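ITGB2 was among the more abundant integrin chains of these cells, at 188 ± 15.8 normalized counts per kb of merged exons with DMSO (SD, n = 3), where it overlapped ITGA6 (196 ± 17.1). Per kb of the MANE Select transcript it was at 489 ± 41.0, near ITGA5 (479 ± 35.7) and above ITGA6 (225 ± 19.6). The α chains it is known to pair with were scarce. ITGAL was listed at 0 in all 3 DMSO libraries and at 1.09 to 3.002 normalized counts with YK-4-279, ITGAM was at 0.999 to 3.34 and 5.14 to 12.01, ITGAD at 0 to 3.34 and 3.26 to 5.003, and ITGAX at 0 to 2.001 over all libraries. The leukocyte marker PTPRC was at 0 in every DMSO library and at 0 to 1.00 with YK-4-279.

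ITGB3BP, a kinetochore protein named for its binding to β3 and outside the rule for naming genes, was picked after its values were seen. It was at 1048, 871 and 929 normalized counts with DMSO and at 674, 645 and 730.4 with YK-4-279, a log2 fold change of -0.47 (SE 0.08, limma adjusted p = 0.0107). Its call was lost in 4 of 17 alternatives, without the eBayes trend and without each YK-4-279 library in turn.

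ILK, the integrin-linked kinase, was listed at 2.001 to 7.51 normalized counts over all libraries. Exons of TAF10 on the opposite strand cover 68.1% of its merged exon bases, and TAF10, a general transcription factor subunit, was at 87.7 to 91.9 with DMSO and 57.6 to 78.0 with the drug. ITGB7, of whose exons 42.3% are shared with ZNF740 on the opposite strand, was at 0 to 2.17. Whether reads of overlapping genes were left out of the counting was not tested.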
